A study of Homo sapiens with 4 samples.

Results

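Short-span cassette exons were followed in A549 cells, a human lung adenocarcinoma line, with normal and reduced RBM10. They were chosen from the deposited splicing table by 3 properties that take no account of the groups: the authors annotated the event as a cassette exon and nothing else, it had a value in all 4 libraries, and the longer of its 2 junctions spanned less than 5000 bp. The choice gave 681 of 3768 listed events, in 461 genes and at 517 exons as the authors label them. The longer junction spanned 253 to 4990 bp, with a median of 2458 bp. An event was an inclusion junction where the examined junction lay inside its background junction (448 events) and a skipping junction where it contained it (230 events). The other 3 events were unresolved.

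The wild-type group held 2 libraries of cells labelled RBM10 wild type. The knockdown group held 2 libraries of the same line transduced with lentivirus carrying 1 shRNA against RBM10 and kept in puromycin at 1 µg/mL for 10 to 14 days. All 4 were stranded libraries of polyadenylated RNA with about 40 M paired reads of 100 bp, and the labels name 1 batch. The labels do not say whether wild-type cells received a control vector or puromycin, so RBM10 loss cannot be told apart from transduction and selection. They also do not say that replicates came from separate cultures, so the p-values rest on library-to-library spread that may be no more than technical.

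RBM10 is an RNA-binding protein that associates with the spliceosome, and at many of its known target exons it favours skipping. A cassette exon is an internal exon that is either kept or left out whole: 2 inclusion junctions join it to its neighbours, and 1 skipping junction joins the neighbours directly. The splice site at the end of the exon, the donor, is recognised by base pairing with the U1 small nuclear RNA, and the last exon bases take part in that pairing. Exons whose length is a multiple of 3 keep the reading frame when they are left out.

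Splicing was measured as PSI, the percentage of reads on the examined junction among reads on a set of competing junctions. Differences are given in points, as knockdown minus wild type. A difference was toward inclusion when an inclusion junction was higher or a skipping junction lower in knockdown, and toward skipping in the opposite case. The read counts behind each PSI are unknown, so no interval can be put on a single value. The table lists only events whose spread over the libraries is at least 15 points, so exons with a steady PSI are not represented.

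Relative to wild-type replicate 2, estimated depth ranged from 84.5% to 100%, lowest in knockdown replicate 1. The estimate is the most common ratio to that library among 3390 genes of low expression. Only 188 to 224 of those genes had that ratio. The RBM10 transcript itself had 35.5 and 40.8 RPKM (reads per length of the gene and depth of the library) in the wild-type libraries, and the knockdown libraries had 11.6 and 10.9 RPKM, which is 29.5% of the wild-type level. All 10 markers fixed for the A549 line had a value, with a sum of 8108 to 8126 RPKM in wild type and 9253 to 9497 RPKM in knockdown. Its members did not move alike: the keratin KRT18 had 890 and 973 RPKM in wild type, against 1731 and 1855 RPKM in knockdown, and the reductase AKR1B10 had 2770 and 2687 RPKM, against 1309 and 1442 RPKM. No alveolar type II marker had a value (0 of 4). Immune markers summed to at most 3.62 RPKM, fibroblast markers to at most 0.198 RPKM and endothelial markers to at most 0.0130 RPKM. These sums cover only the markers with a value: 2 of 4 immune, 2 of 4 fibroblast and 1 of 3 endothelial. The immune sum, mostly CD68, was 1.58 and 1.77 RPKM in wild type, against 3.51 and 3.62 RPKM in knockdown, and its part in the splicing results was not tested.

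The exons themselves are shown for 9 of the exons with the largest differences. These have at most 300 bases and lie in coding sequence and in no annotated untranslated region. Another 3 very short exons are shown, chosen after their values were seen. Letters are from GENCODE v29 transcripts (hg38), read 5′ to 3′ on the gene's strand, and the capitals mark the last 3 bases of the exon, its share of the donor site. The first 3 sequences are of exons toward inclusion in knockdown.
ASIC3 E5.3 (chr7:151051172-151051319, plus strand, 148 bases): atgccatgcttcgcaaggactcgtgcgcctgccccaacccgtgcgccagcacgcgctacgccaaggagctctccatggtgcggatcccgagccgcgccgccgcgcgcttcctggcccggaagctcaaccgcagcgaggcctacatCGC
TEP1 E30.1 (chr14:20381553-20381686, minus strand, 134 bases): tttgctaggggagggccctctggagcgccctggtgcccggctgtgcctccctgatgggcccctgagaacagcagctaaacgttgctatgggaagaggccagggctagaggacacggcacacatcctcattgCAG
SYT15 E2.1 (chr10:46580164-46580368, plus strand, 205 bases): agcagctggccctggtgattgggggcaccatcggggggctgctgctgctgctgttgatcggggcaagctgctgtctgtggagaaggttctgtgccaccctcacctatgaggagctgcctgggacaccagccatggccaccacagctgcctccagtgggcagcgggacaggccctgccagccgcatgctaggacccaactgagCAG
The next 6 are of exons toward skipping.
CAPN12 E19.1 (chr19:38734813-38734870, minus strand, 58 bases): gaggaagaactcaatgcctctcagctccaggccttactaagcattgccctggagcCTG
CEP295 E17.1 (chr11:93702776-93702919, plus strand, 144 bases): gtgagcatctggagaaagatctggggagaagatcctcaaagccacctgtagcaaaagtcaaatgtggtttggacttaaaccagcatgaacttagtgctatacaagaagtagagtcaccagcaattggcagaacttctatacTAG
FBXO4 E2.2 (chr5:41927013-41927248, plus strand, 236 bases): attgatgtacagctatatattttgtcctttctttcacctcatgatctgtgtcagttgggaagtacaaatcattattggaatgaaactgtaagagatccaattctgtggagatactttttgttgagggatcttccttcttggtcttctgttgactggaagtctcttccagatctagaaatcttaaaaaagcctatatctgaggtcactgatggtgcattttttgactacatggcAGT
MAPK7 E6.4 (chr17:19380484-19380501, plus strand, 18 bases): cccctatggggtcccAGG
PITPNM2 E27.1 (chr12:122991755-122991898, minus strand, 144 bases): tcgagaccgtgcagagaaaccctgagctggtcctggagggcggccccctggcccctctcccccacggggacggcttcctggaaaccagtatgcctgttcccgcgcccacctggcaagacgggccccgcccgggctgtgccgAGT
PPP6R2 E23.1 (chr22:50436988-50437068, plus strand, 81 bases): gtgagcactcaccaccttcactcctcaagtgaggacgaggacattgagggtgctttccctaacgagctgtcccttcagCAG
The last 3, of 12 to 18 bases, were toward inclusion and hold a few codons each.
MYO18A E24.1 (chr17:29116444-29116455, minus strand, 12 bases): aagctgctgAAG
MON2 E31.2 (chr12:62566014-62566031, plus strand, 18 bases): atccaactatttgcaCCG
MACF1 E107.1 (chr1:39465095-39465112, plus strand, 18 bases): ttcttcctcggcaatCAG

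In knockdown cells, most short-span cassette exons had a higher level of inclusion. The median PSI of inclusion junctions was 45.3% and 44.5% in wild type and 54.7% and 52% in knockdown. Skipping junctions had medians of 61.4% and 58.8% in wild type, against 51.0% and 50.7% in knockdown. For both kinds of junction the medians of the groups did not overlap, with more inclusion in knockdown. Over the 448 inclusion junctions the median difference was 10.8 points (quartiles -6.22 and 19.4), and 295 of them (65.8%) were higher in knockdown. Over the 230 skipping junctions the median was -13.6 points, and 153 were lower. The median over all 3744 events with complete values was 0.0848 points.

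Event by event, the difference did not pass the test once it was adjusted for all events. In limma with Benjamini-Hochberg adjustment over all 3744 events, 0 of 681 short-span events passed an adjusted p of 0.05 with a difference of 10 points, and 4 events of the whole table did (0.107%, with 0.0801% higher and 0.0267% lower). At an unadjusted p under 0.05, 160 short-span events passed (23.5%), beside 18.4% of all events. Of these, 133 were toward inclusion and 25 toward skipping, and 2 were unresolved. Among inclusion junctions 83 were higher and 19 lower, and among skipping junctions 6 were higher and 50 lower, where 9.27% of all events were higher and 9.13% lower. Leaving out any 1 library, which removes a degree of freedom, left 53 to 62 events toward inclusion and 8 to 13 toward skipping. PSI tested on the logit scale gave 1 event past the adjusted test, and limma with a trend gave 0. An exact permutation test of 2 against 2 libraries cannot go below p = 0.333.

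The groups did not overlap, at a difference of 10 points or more, in 433 short-span events (63.6%), beside 53.5% of all events. For inclusion junctions 212 were higher (47.3%) and 74 lower (16.5%), against a background of 27.4% higher and 26% lower. For skipping junctions 30 were higher (13.0%) and 115 lower (50.0%). In all, 327 events without overlap were toward inclusion and 104 toward skipping. Without 1 library these counts were 353 to 371 and 138 to 162, and the count toward skipping was 162 without knockdown replicate 2. The junctions of 1 exon share reads, and 293 events shared their exon with another one, so exons were also counted once each, by the event with the largest difference. Of 514 exons with a direction, 328 (63.8%) were toward inclusion, with a median of 10.7 points. Large differences leaned further: 120 exons differed by 20 points or more toward inclusion and 29 toward skipping, and at 30 points or more the counts were 40 and 6.

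**Figure D1:**
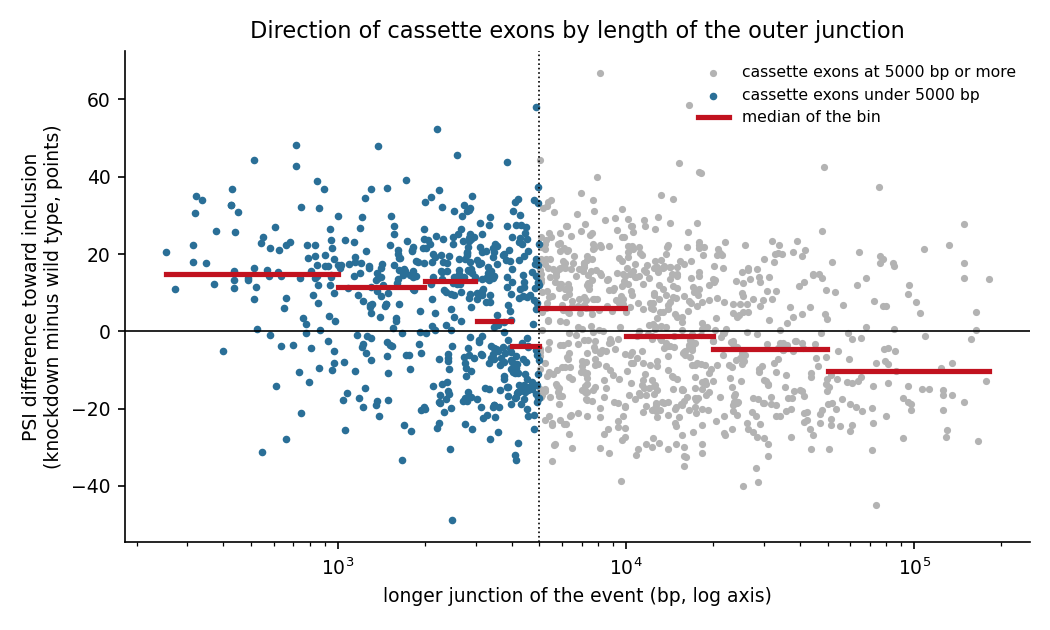
PSI difference of each cassette exon toward inclusion (y axis, points, knockdown minus wild type, sign turned for skipping junctions) against the span of its longer junction (x axis, bp, log scale). Each point is 1 exon by its event with the largest difference, coloured by span class, and red bars are medians of span bins. The medians are above 0 for the shortest spans and below 0 for the longest.

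The lean toward inclusion was strongest for the shortest spans and did not run evenly up to the limit. Under 1000 bp, 73 of 90 exons (81.1%) were toward inclusion, with a median of 14.9 points, and 26 passed the unadjusted test toward inclusion against 2 toward skipping. From 1000 to 2000 bp, 68.7% of 115 exons were toward inclusion (median 11.4 points), and from 2000 to 3000 bp, 67.5% of 120 (median 13.0 points). Between 3000 and 4000 bp the share was 53.1% of 96 exons (median 2.61 points), and between 4000 and 5000 bp it was 47.3% of 93 (median -3.88 points). The exons nearest to the limit were thus divided, although 15 of those from 4000 to 5000 bp passed the unadjusted test toward inclusion and 4 toward skipping. Across the 514 exons, span and difference had a Pearson r of -0.212 and a Spearman coefficient of -0.214. The points of that relation share libraries and in part genes, and no p is given.

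Beyond the limit, cassette exons of 5000 to under 20000 bp were toward inclusion in 53.1% of 524 cases, with 58 past the unadjusted test toward inclusion and 39 toward skipping. Those of 20000 bp or more were toward inclusion in 36.6% of 273 cases, with 10 and 33. Their inclusion junctions had medians of 2.22 and -6.38 points. With the limit at 3000 bp in place of 5000 bp, the median of the short-span inclusion junctions was 13.2 points, and with 10000 bp it was 8.56 points. Nearest to the limit on the inside were the 3 events of exon E8.1 of TERF1, a telomere-binding protein, at 4990 bp. Its E8.1-E9.2 junction was at 46.9% and 27.0% in wild type and at 63.9% and 55.3% in knockdown. Its E7.2-E8.1 junction was at 42.4% and 25% in wild type and at 58.1% and 38.2% in knockdown, where the groups overlapped, and its skipping junction at 38.2% and 58.7%, then 24.1% and 35.0%. Just outside were ADGRG2, an adhesion receptor (5003 bp; 57.7% and 50.0% in wild type, 80.0% and 59.6% in knockdown), CBWD6 (5017 bp; 14.1% and 29.9%, then 13.9% and 10.4%) and FAM228B (5021 bp; 36.4% and 56.7%, then 47.6% and 34.6%).

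The exons with the largest differences toward inclusion were in genes of several kinds. They are described by their values, since they were picked for size and for groups that do not overlap, and their limma adjusted p lay between 0.194 and 0.259. The largest was exon E19.1 of MTMR1, a myotubularin-related lipid phosphatase (chrX:150751030-150751240, 211 bases). Its inclusion junction E18.1-E19.1 was at 23.5% and 11.8% in wild type and at 71.4% and 80.0% in knockdown, a difference of 58.1 points (SE 9.25). Its skipping event compares the same 2 junctions the other way round, so its mirrored values add nothing. Only 1 end of the exon was listed among short-span events, and its junction went from a minor to a major share. MYO18A, an unconventional myosin, came next, with the 12-base exon E24.1 printed above. The junction on one side was at 34.0% and 37.8% in wild type and at 86.4% and 90.1% in knockdown (52.3 points, SE 8.44). On the other side it was at 45.0% and 43.9%, then 87.8% and 90.4%, and the skipping junction at 42.9% and 41.8%, then 6.90% and 5.11%. At all 3 junctions of this very short exon the replicates lay close together and the groups far apart.

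ASIC3, an acid-sensing ion channel, held 1 GENCODE exon of 148 bases under 2 labels, so that the 12 exons named toward inclusion are 11 distinct ones. Its E5.3-E6.1 junction was at 42.3% and 33.3% in wild type and at 95.8% and 76.5% in knockdown (48.3 points, SE 10.2). The E4.1-E5.1 junction on its other side was at 28.6% and 40.0%, then 78.3% and 75.8%, and skipping at 46.9% and 46.2%, then 1.20% and 13.6%. Skipping of this exon was thus near the bottom of the scale in knockdown. WNK2, a kinase that regulates ion transport, reached the top of the scale: its E9.1-E11.1 inclusion junction was at 60% and 47.6% in wild type and at 95.2% and 100% in knockdown (43.8 points, SE 9.09), and its skipping junction at 25.6% and 30.6%, then 3.45% and 0%. Expression of WNK2 was low, at 1.02 and 1.23 RPKM in wild type and 1.23 and 1.30 RPKM in knockdown. TEP1, a component of telomerase and vault particles, has a span of 512 bp around exon E30.1. Its E30.1-E31.1 junction was at 42.3% and 27.8% in wild type and at 66.7% and 91.9% in knockdown (44.2 points, SE 11.6), with the groups apart and a wide gap between the knockdown libraries.

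EZH2, the histone methyltransferase of a Polycomb repressive complex, gave 2 exons with opposite directions. Skipping of the 82-base exon E13.1 was at 77.9% and 81.0% in wild type and at 44.1% and 40.6% in knockdown (-37.1 points, SE 8.40). Its inclusion junctions were at 12.1% and 8.25%, then 33.6% and 34.8%, on one side and at 11.8% and 11.2%, then 39.2% and 44.6%, on the other. Exon E14.7 of the same gene was used less: its junction E14.5-E14.7 was at 91.6% and 93.7% in wild type and at 70.8% and 72.7% in knockdown (-20.8 points), an exon named after its values were seen. Another pair of genes had the skipping junction as the largest event. CSAD, an enzyme of taurine synthesis, had the skipping junction over exon E13.2 at 75% and 60% in wild type and at 11.1% and 27.8% in knockdown (-48.1 points, SE 10.4). FAM86B1, a gene with close copies among which reads could be shared, had skipping of E4.1 at 51.6% and 80.0%, then 35.9% and 21.2% (-37.3 points, SE 12.2). Expression of FAM86B1 was low, at 0.847 and 0.678 RPKM, then 1.33 and 1.51 RPKM.

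Of the remaining exons of the 12, FUBP1 had the widest gap between replicates. This single-stranded DNA and RNA-binding protein had the E22.3-E23.1 junction at 9.68% and 44.4% in wild type and at 63.3% and 81.8% in knockdown (45.5 points, SE 13.8). SYT15, a synaptotagmin with a near-identical copy, had E1.4-E2.1 at 45.0% and 24.0%, then 78.3% and 69.2% (39.2 points, SE 10.5). PKD1, polycystin-1, whose pseudogenes resemble it over many exons, had E7.2-E8.1 at 25% and 50.0%, then 71.4% and 81.6% (39.0 points, SE 11.2). In each of them 1 wild-type library lay well above the other, so these differences rest on widely spaced values.

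Differences toward skipping were fewer and, beyond the first, smaller. The first was ZBTB14, a zinc finger transcription factor, whose 30-base exon E5.2 lies in an untranslated region. Its skipping junction was at 4.76% and 17.9% in wild type and at 72.0% and 48.3% in knockdown (48.8 points, SE 11.2). The gene had only 0.180 and 0.254 RPKM in wild type and 0.276 and 0.302 RPKM in knockdown. That is under the 1 RPKM asked of a gene for the expression test, so few reads may lie behind this PSI. The other 11 differed by 25.6 to 33.4 points, with adjusted p between 0.259 and 0.267. MUM1, now named PWWP3A, a PWWP-domain protein, had E4.4-E5.2 at 60% and 52.5% in wild type and at 23.5% and 22.2% in knockdown. CAPN12, a calpain protease, had E18.9-E19.1 at 71.4% and 44.1%, then 23.5% and 25.3%. CEP295, a centriole protein, had E17.1-E18.1 at 91.7% and 60.7%, then 40.0% and 48.1%. In both CAPN12 and CEP295 the wild-type libraries lay far apart and the knockdown libraries close together.

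MICAL1, an enzyme that oxidises actin, had E8.2-E9.1 at 36.7% and 48.3% in wild type and at 11.3% and 11.1% in knockdown (-31.3 points, SE 8.91). MAPK7, a MAP kinase also called ERK5, had skipping of its 18-base exon E6.4 at 46.2% and 29.6%, then 63.9% and 67.8%. It was 1 of only 2 exons of at most 30 bases to pass the unadjusted test toward skipping, with ZBTB14. FBXO4, an F-box protein of a ubiquitin ligase, had its junction at 80.0% and 85.7%, then 61.1% and 46.8%, and KRTCAP2, a subunit of the oligosaccharyltransferase, at 54.1% and 50.0%, then 20% and 28.6%. PITPNM2, a phosphatidylinositol transfer protein, was at 43.5% and 63.0%, then 29.5% and 25.3%. PPP6R2, a regulatory subunit of a protein phosphatase, was at 60.7% and 70.0%, then 38.5% and 41.0%. AFG3L1P, a transcribed pseudogene with coding relatives, was at 86.0% and 91.7%, then 60.7% and 56.2%. Its expression was low, at 0.978 and 0.761 RPKM, then 0.711 and 0.771 RPKM. MTHFSD held neighbouring exons of opposite direction: E5.2-E6.1 was at 64.1% and 58.5%, then 40.7% and 29.6%, while E2.4-E4.1 was at 50.0% and 36.9%, then 64.3% and 68.0%. The competing junction of each exon joins the other exon, so these differences may be 1 switch read from both sides.

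**Figure D2:**
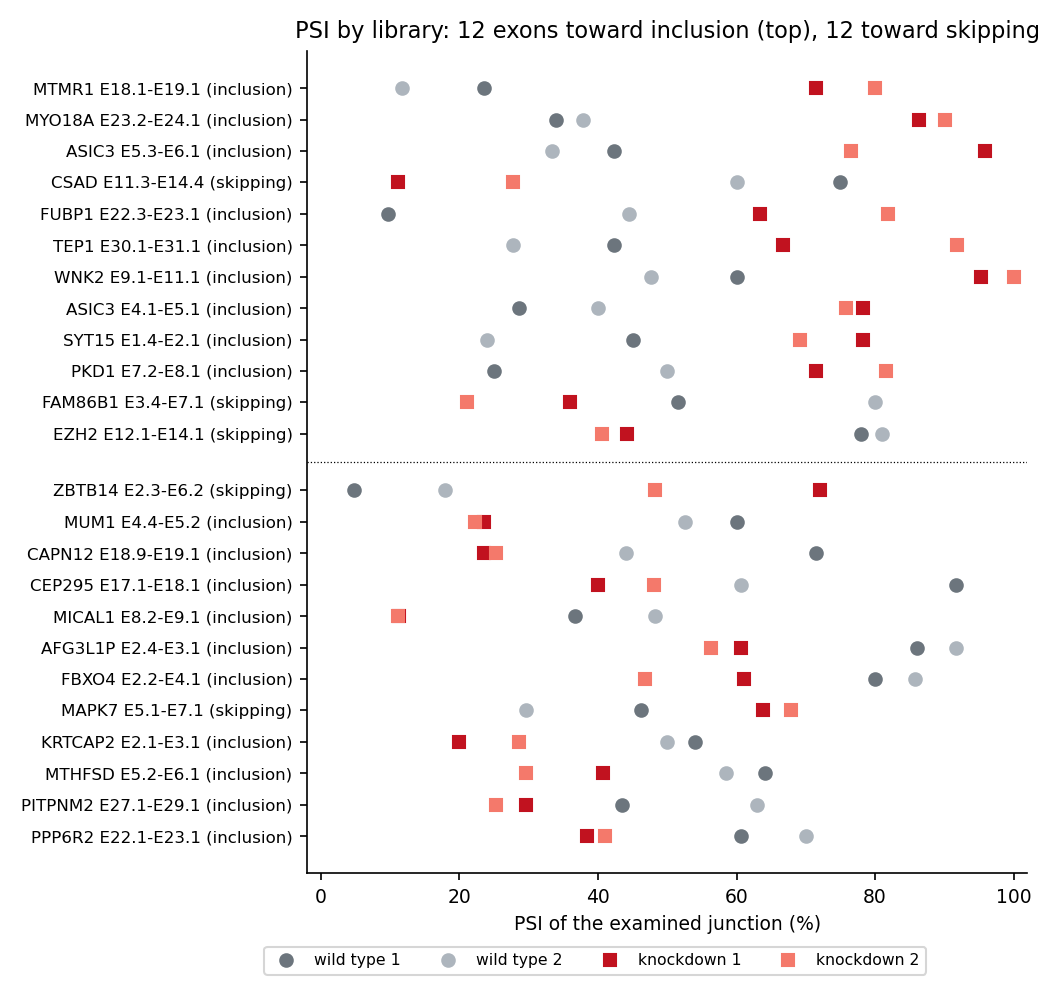
PSI of the named exons in each library (x axis, percent) for the 12 exons with the largest difference toward inclusion and the 12 with the largest difference toward skipping. Each point is 1 library, coloured by group, and the junction and its kind follow each name. The groups do not overlap in any of the 24, by the rule that chose them.

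In every list of genes by function with a short-span exon, except mitochondria and metabolism, more exons were toward inclusion than toward skipping. That list held only the MTHFSD exons, 1 in each direction. The lists are small, and their shares are to be read against those of all 514 short-span exons, of which 63.8% were toward inclusion, with 18.5% past the unadjusted test toward inclusion and 3.89% toward skipping. Splicing factors and other RNA-binding proteins held 12 exons in 9 genes, of which 9 were toward inclusion and 3 toward skipping, with 4 and 0 past the unadjusted test. Besides FUBP1, PRPF39, a protein associated with the U1 particle, had E4.3-E5.1 at 39.1% and 49.0% in wild type and at 72.7% and 60% in knockdown. RBM25, a splicing factor, had skipping of its 62-base exon E13.1 at 91.1% and 85.3%, then 67.3% and 66.1%. Genes of mRNA decay and translation held 5 exons, with 3 toward inclusion. Skipping of an exon of TNRC6A, a scaffold of microRNA silencing, was at 74.5% and 74.3% in wild type and at 34.0% and 49.6% in knockdown. For UPF3A, a factor of nonsense-mediated decay, E2.3-E3.1 was at 88.3% and 72.2%, then 68.5% and 77.8%, and the groups overlapped.

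Chromatin and transcription genes held 13 exons, 9 toward inclusion and 4 toward skipping, with 5 and 1 past the unadjusted test. KDM6A, a histone demethylase, had E36.1-E37.1 at 24.4% and 14.3% in wild type and at 60% and 45.5% in knockdown, and EP400, a chromatin remodelling ATPase, had E4.2-E5.1 at 39.3% and 46.2%, then 80.0% and 69.8%. Kinases, phosphatases and signalling genes held 12 exons, 9 toward inclusion and 3 toward skipping, with 6 and 1 past the unadjusted test. Beside MTMR1 and WNK2 this list named PPP4R1, a regulatory subunit of a protein phosphatase, whose exon E19.5 was at 39.5% and 14.1%, then 62.5% and 64.7%. Of the cytoskeleton and adhesion list, 13 of 15 exons were toward inclusion, 3 past the unadjusted test. MACF1, which links actin and microtubules, had its 18-base exon at 26.1% and 25.9% in wild type and at 51.7% and 67.0% in knockdown. Skipping in DOCK6, a guanine nucleotide exchange factor, was at 83.3% and 81.2%, then 66.7% and 47.5%.

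Membrane trafficking genes held 7 exons as labelled, 5 toward inclusion, where 1 MON2 exon was counted under the labels E31.2 and E30.2. MON2, a regulator of endosome-to-Golgi traffic, had its 18-base exon at 77.0% and 66.7% in wild type and at 98.6% and 92.2% in knockdown, with skipping at 14.3% and 19.6%, then 0.699% and 4.24%. DNM1L, the dynamin-like GTPase of mitochondrial fission, had a 33-base exon at 62.5% and 61.2%, then 79.0% and 77.0%. All 3 apoptosis exons were toward inclusion, 1 past the unadjusted test. MADD, a death-domain protein of MAP kinase signalling, had its 60-base exon at 15.2% and 20.3%, then 43.8% and 54.3%. Skipping of an exon of CASP2 was at 87.2% and 100%, then 71.4% and 74.6%, and an exon of CASP8 was at 61.5% and 62.5%, then 78.9% and 80.9%. Both genes encode caspases.

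The ubiquitin and autophagy list held 7 exons, 6 toward inclusion, with 2 past the unadjusted test. Skipping in FBXO18, now named FBH1, an F-box DNA helicase, was at 85.8% and 89.4% in wild type and at 51.8% and 59.7% in knockdown. USP54, of the deubiquitinase family, had its exon at 36.7% and 37.8%, then 70.3% and 55.1%, and UBAP2L, a ubiquitin-associated protein, at 15.6% and 13.7%, then 21.0% and 50.0%, where 1 knockdown library gave most of the difference. Cell cycle and DNA repair genes held 5 exons, 4 toward inclusion and none past the unadjusted test in either direction. Skipping in MSH5, of the mismatch repair family, was at 58.0% and 89.7%, then 32.6% and 75.5%, and in MCM8, a helicase, at 72.8% and 81.4%, then 64.0% and 57.4%. CDC25C, a phosphatase that drives entry into mitosis, had E4.1-E5.2 at 74.5% and 77.4%, then 57.1% and 55.3%, which was toward skipping. Of the 6 known RBM10 targets listed (NUMB, FAS, BCL2L1, EIF4H, RBM5 and RBM10), 0 had a short-span event.

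Where an exon could be read at both of its ends, the readings mostly had the same direction. Inclusion junctions on both sides were listed for 67 exons, and in 64 of them the differences had the same sign, higher in 47 and lower in 17. Pearson's r across these exons was 0.882 and the median gap between the sides was 5.36 points, where both sides share libraries and competing junctions. The 3 exceptions were FBF1 E3.1 (-2.26 and 25.1 points), MAN2A2 E5.2 (-4.20 and 29.7 points) and ARMCX5-GPRASP2 E4.1 (2.84 and -0.375 points). In FBF1 and MAN2A2 one side was far higher in knockdown and the other side slightly lower. Both an inclusion and a skipping junction were listed for 97 exons, and the 2 kinds had opposite signs in 92. The 2 kinds compete for the same reads, so opposite signs are largely built into the measure, as in MTMR1 (58.1 and -58.1 points).

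**Figure D3:**
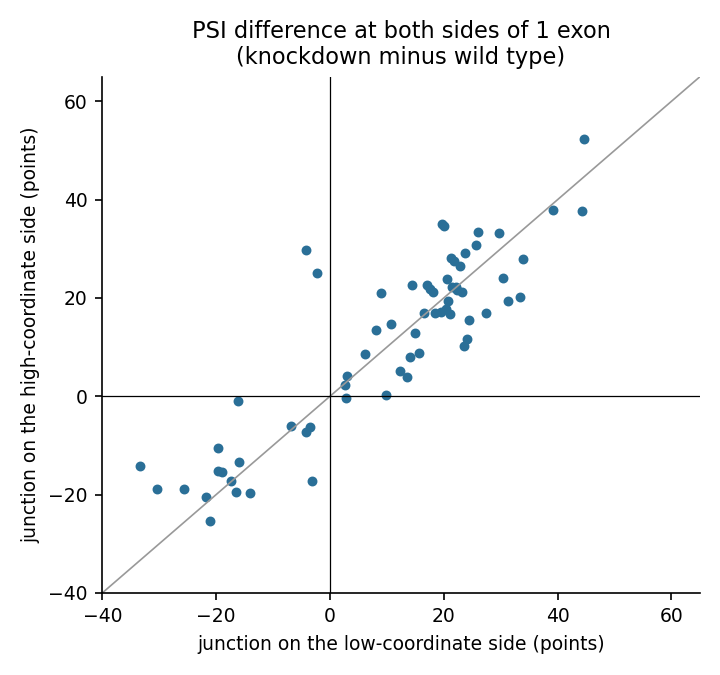
PSI difference (points, knockdown minus wild type) at the inclusion junction on the low-coordinate side (x axis) and on the high-coordinate side (y axis) of the 67 exons listed with both. Each point is 1 exon and the grey line marks equal values; 64 points have the same sign on both axes.

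The short-span exons had features that the choice did not use. Of 514 exons, 410 matched 1 internal exon of GENCODE v29 (396 distinct exons), 37 had several candidates and 67 had none. Median length was 101 bases (9 to 3381), against 123 bases for 180348 internal exons of protein-coding transcripts in GENCODE. Length was a multiple of 3 in 222 exons (54.1%), against 40.3%, and median GC content was 53.6%, against 50.0%. Exons of at most 30 bases made up 6.59%, against 1.53%. Cassette exons with a span of 5000 to under 20000 bp had a median length of 110 bases, a multiple of 3 in 55.3%, a GC content of 49.1% and 3.46% with at most 30 bases. Those of 20000 bp or more had a median length of 104 bases, a multiple of 3 in 41.5%, a GC content of 48.6% and 2.05% with at most 30 bases. The share in frame was thus much like that of the neighbouring span class, and these differences were not tested.

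Most very short exons were toward inclusion. Of the 27 with at most 30 bases, 21 were toward inclusion, with a median of 19.2 points, and 11 passed the unadjusted test toward inclusion (40.7%) and 2 toward skipping (7.41%). Over all 514 short-span exons these shares were 18.5% and 3.89%, and 63.8% were toward inclusion. The short exons named here were chosen after their values were seen. SIDT2, a lysosomal membrane protein, had skipping of a 12-base exon at 100% and 100% in wild type and at 65.1% and 70.6% in knockdown. It was the single short-span event past the adjusted test on the logit scale (limma adjusted p = 0.0443), and on the PSI scale its adjusted p was 0.259. Both of its wild-type values lay at the top of the scale. There the logit is set by the offset of 0.01 added to the PSI fraction, so the logit result depends on that choice. PTPRS, a receptor phosphatase, had a 12-base exon at 68.3% and 57.7%, then 82.1% and 88.6%, and SPTAN1, a spectrin, had skipping of a 15-base exon at 99.5% and 97.6%, then 80.2% and 78.0%. HGD, of tyrosine breakdown, had a 22-base exon at 4.57% and 4.47%, then 29.3% and 23.5%. GOPC, a Golgi PDZ protein, had skipping of a 24-base exon at 96.1% and 100%, then 76.2% and 75.8%. In SIDT2, SPTAN1, HGD and GOPC the exon was almost absent from wild-type RNA and present in a minority of knockdown RNA. Against these, a 24-base exon of FLNA, filamin A, was at 69.6% and 68.0% in wild type and at 50.5% and 52.3% in knockdown, and a 9-base exon of MTSS1L, now named MTSS2, was at 48.2% and 37.2%, then 20.5% and 25.7%.

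Exons in coding sequence only and in untranslated regions only did not lean alike. Coding exons lay inside the coding sequence of at least 1 transcript and overlapped no annotated untranslated region of the gene. Of these 202 exons, 69.3% were toward inclusion (median 13.9 points), with 50 past the unadjusted test toward inclusion and 9 toward skipping. Of 39 exons in untranslated regions only, 41.0% were toward inclusion (median -4.31 points), with 4 and 1. The 116 exons classed as both coding and untranslated leaned like the whole set. Of these, 63.8% were toward inclusion (median 11.4 points), with 25 and 5. Exons of noncoding transcripts were toward inclusion in 66.0% of 53 cases. For lengths that are a multiple of 3 the share was 68.0% of 222 (median 14.1 points), and for other lengths 60.6% of 188 (median 7.51 points). These shares are descriptions, and their differences were not tested.

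At the donor end, 76.3% of the 410 exons ended in G, against 79.8% of internal exons in GENCODE. Among the 86 exons past the unadjusted test toward inclusion it was 64.0%, among the 17 toward skipping 76.5%, and among the other 307 it was 79.8%. Counted the other way, 97 exons did not end in G, as in ASIC3, whose sequence ends in CGC. Of these, 75.3% were toward inclusion, and 31 passed the unadjusted test toward inclusion and 4 toward skipping. Of the 313 that ended in G, 61.3% were toward inclusion, with 55 and 13. Among the 6 printed exons toward skipping, FBXO4 and PITPNM2 also lack the final G and end in AGT. The ending CAG was found in 24.1% of the exons and in 17.4% of those past the unadjusted test toward inclusion, against 23.6% of internal exons.

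Short sequences were searched in the exons. The letters CTGTGGA, searched anywhere in the exon on the transcript strand only, were in 18 of 410 exons (4.39%), against 3.25% of internal exons. By direction, they were in 4.65% of the 86 exons past the unadjusted test toward inclusion, in 11.8% of the 17 toward skipping and in 3.91% of the other 307. The letters GTGGA, which CTGTGGA contains, were in the last 60 bases of 9.85% of the 335 exons that long, against 11.2%. By direction the share was 4.41% of 68 exons, 23.1% of 13 and 10.6% of 254 in the same order. The groups toward skipping hold few exons, and these shares were not tested. Flanking introns were not searched.

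Host genes of these exons changed in expression in both directions, more often upward. Of 461 host genes, 421 had a mean of at least 1 RPKM in a group and were tested on log2(RPKM + 1) with limma, a scale that understates changes at low levels. Of these, 71 rose (16.9%, beside 15.3% of all 10182 genes) and 15 fell (3.56%, beside 7.03%), at a Benjamini-Hochberg adjusted p under 0.05. In total 20.4% changed, beside 22.3% of all genes. The split depends on scaling, with 52 higher and 32 lower after quantile normalization and 60 and 30 with library medians set equal. Without wild-type replicate 1 or knockdown replicate 1, 8 and 7 genes fell, and over the 4 libraries left out in turn 54 to 59 rose. In bulk RNA, fewer cells of a type and less RNA per cell cannot be told apart, nor can a new splice choice and a new mixture of cells.

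Changes in expression were set beside the differences of the exons. Of the genes with an exon past the unadjusted test toward inclusion, 85 were tested, and 16 rose and 3 fell. Of those with an exon toward skipping, 18 were tested, and 5 rose and 0 fell. Of all tested host genes 16.9% rose and 3.56% fell, and of all genes 15.3% and 7.03%. The counts were not tested against these shares. Across 420 genes the exon difference and the log2 change had a Pearson r of -0.0478 and a Spearman coefficient of -0.00461, over values from the same libraries. PPP4R1 fell most, from 9.66 and 8.48 RPKM to 1.82 and 2.11 RPKM (log2 change -1.76, SE 0.12, adjusted p = 1.25e-05), while its exon was 36.8 points toward inclusion. FUBP1 fell from 72.1 and 64.7 RPKM to 50.7 and 50.4 RPKM (limma adjusted p = 0.0126). NFKB2, a subunit of NF-kB, fell from 35.5 and 39.1 RPKM to 15.9 and 14.4 RPKM, while its E2.2-E2.4 junction was at 57.3% and 59.6%, then 52.9% and 77.8%, with overlapping groups.

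Several host genes rose, with exons that differed in either direction. FN1, fibronectin, rose from 24.6 and 21.8 RPKM to 103 and 123 RPKM (log2 change 2.23, SE 0.12, adjusted p = 3.13e-06). Its 273-base coding exon E24.1 was used less, at 45.9% and 45.9% in wild type and at 27.3% and 28.6% in knockdown (-18.0 points, adjusted p = 0.281). LAMB3, a laminin chain, rose by 1.89 on the log2 scale, and its E3.2-E3.4 junction was at 28.6% and 34.3%, then 8.63% and 10.4%. HAPLN3, a hyaluronan-linking matrix protein, rose by 2.08, and its skipping junction E4.1-E6.1 was at 79.2% and 89.1%, then 64.9% and 58.4%. PTP4A3, a protein phosphatase, rose by 1.63 and its exon was at 59.1% and 42.9%, then 80.7% and 76.0%. LTBP4, a latent TGF-beta binding protein, rose by 1.20 with an exon at 61.2% and 68.1%, then 92.3% and 90.2%. The adapter gene GRB7 rose from 2.71 and 2.83 RPKM to 5.64 and 4.87 RPKM, and its E14.1-E15.1 junction was at 45.0% and 48.4%, then 80.0% and 83.3%. These 6 genes and NFKB2 were named after their values were seen. Whether the authors' counting used strand is not stated, so reads of antisense partners could be part of these levels.

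**Figure D4:**
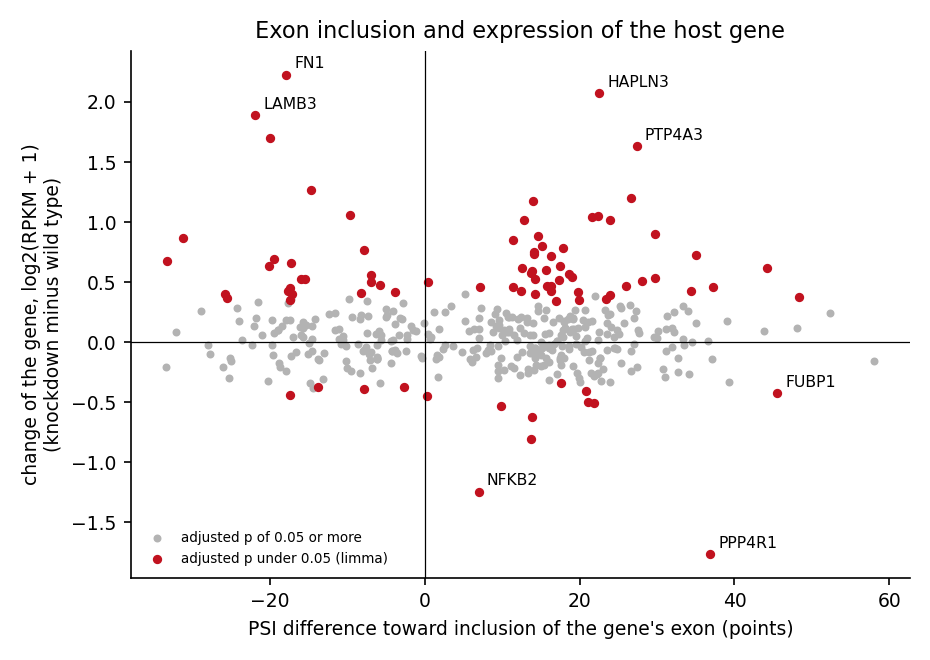
Change of the host gene in expression (y axis, log2(RPKM + 1), knockdown minus wild type) against the PSI difference of its exon toward inclusion (x axis, points). Each point is 1 gene by its exon with the largest difference, coloured by limma's adjusted p under 0.05; genes that rose lie on both sides of 0 on the x axis.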

How the data were processed

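RNA of 2 RBM10 wild-type and 2 RBM10 knockdown libraries was analysed, grouped by the genotype label. The authors deposited PSI as a fraction from 0 to 1 per junction event, per the file headers; it is printed as a percent, which is only a change of unit. The authors also deposited gene expression in a unit that the file does not name and that was read as RPKM from the values. The submitters' processing notes name STAR 2.6.1 and the hg38 build. Neither the splicing caller nor the counter, the annotation or the use of strand is given in the sources used here. Read depth per junction is unknown, so the precision of a single PSI is too.

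PSI was compared with limma 3.58.1 (R 4.3.3; two-sided, no covariate) over all 3744 events with a value in every library, and expression with limma's trend on log2(RPKM + 1) in the 10182 genes whose mean reached 1 RPKM in at least 1 group, both with Benjamini-Hochberg adjustment. Counts and medians used Python 3.11.15. Both fits were also run on simulated data with normal noise, which is not bounded as PSI is, and no conclusion is drawn from that here. Exons were placed on GENCODE v29 by their junction ends, which named the exon only where 1 internal exon matched. Sequences came from its transcripts. Named exons were the 12 with the largest difference in each direction (groups apart, unadjusted p under 0.05), up to 3 per gene list (1 exon is not reported here), the 3 events on either side of the limit and up to 4 exons with both junction kinds. The exons, lists and rules were chosen with earlier results of these data known. Alternatives were libraries left out, a replicate block, a logit scale, a trend, other limits, thresholds and counting units, and, for expression, the pseudocount, the filter and the scaling.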

Additional observations from a re-analysis of the deposited data

How the results depend on the processing

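Named exons kept their direction in 374 of 376 alternative values. This count is no measure of robustness. Apart from UPF3A E2.3-E3.1 and MSH5 E8.1-E11.1, the groups of every named exon did not overlap. For such exons neither leaving out 1 library nor the logit scale could reverse the direction. With 1 library left out in turn, UPF3A E2.3-E3.1 (-7.07 points) ranged from -15.1 to 0.994 points, reversed without wild-type replicate 1, and MSH5 E8.1-E11.1 (-19.8 points) from -41.3 to 1.66 points, reversed without knockdown replicate 1. Over all events, 4 passed the adjusted test, 0 without any 1 library, 0 with a trend and 39 on the logit scale. Of short-span events 0 passed, and 1 did on the logit scale. Their smallest adjusted p without 1 library was 0.345 to 0.437. At an unadjusted p under 0.05, the 133 events toward inclusion became 53 to 62 without 1 library and 83 from inclusion junctions alone. The 25 toward skipping became 8 to 13 without 1 library and 50 with a limit of 10000 bp. Without overlap of the groups, the 327 events toward inclusion became 353 to 371 without 1 library, 169 at 20 points and 212 from inclusion junctions alone. The 104 toward skipping became 138 to 162 without 1 library, 33 at 20 points, 54 with a limit of 3000 bp and 184 with 10000 bp. Groups overlap less readily with 2 libraries against 1, so these counts without 1 library cannot be set against those of all 4. The median of inclusion junctions, 10.8 points, was 11.1 to 12.3 without 1 library, 13.2 under 3000 bp, 8.56 under 10000 bp and 9.98 with 1 value per exon. That of skipping junctions, -13.6 points, was -13.1 to -11.9 without 1 library and -12.3 with 1 value per exon. Of host genes, 71 rose, 54 to 59 without 1 library and 37 with no filter on low values. The 15 that fell became 7 to 18 without 1 library, 6 with no filter, 32 after quantile normalization and 30 with library medians set equal. The causes of these shifts were not tested.

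Both groups are numbered 1 and 2, but the numbers do not pair the libraries: deviations of same-numbered libraries had a correlation of -0.0396 in PSI and -0.444 in expression. With the replicate block, 62 events of the whole table and 12 short-span events passed the adjusted test, and 8 host genes fell. A crossed block, added after the data were seen, gave 96 host genes that rose and 46 that fell.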

Other observations

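The 3 unresolved events involve 2 exons each and have no direction. In ABCB6, a mitochondrial and lysosomal transporter, junction E1.5-E3.1 was at 26.9% and 32.4% in wild type and at 90.9% and 90.0% in knockdown (60.8 points, SE 8.44), which gave the smallest adjusted p of the 681 events, 0.146 in limma. In DIS3, a nuclease of the exosome, E1.5-E3.1 was at 71.9% and 74.6%, then 51.2% and 42.2%, while the inclusion junction E1.5-E2.1 of the same gene was at 17.9% and 4.08%, then 39.7% and 36.4%. In the antisense RNA TPT1-AS1, E13.2-E15.2 was at 55.0% and 36.0%, then 29.7% and 41.5%, with overlapping groups. More than 1 exon was listed for 52 of the 461 genes. CSAD was among them: a second skipping junction, E18.2-E20.1, was at 75% and 58.8% in wild type and at 30.4% and 29.8% in knockdown, the same direction as that over E13.2.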
